A study of Mus musculus with 9 samples.

Results

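Apolipoprotein E, the cholesterol exporters and lipid sensors connected with it, and the lipid-binding receptor TREM2 with its adaptor were followed across macrophages of 3 mouse organs. The genes were chosen by symbol, namely Apoe, Abca1, Abcg1, Nr1h3, Nr1h2, Lpl, Trem2 and Tyrobp. Of these 8 symbols, 7 had a row among the 15434 genes of the deposited table, and Nr1h3 was not analysed here. The choice was made with results of these data known, so the values of the 7 genes are given as a description, with differences and errors and without p-values.

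RNA was sequenced from macrophages of testis, epididymis (the duct in which sperm mature) and brain, the last being microglia, with 3 libraries per organ. All came from C57BL/6J mice with no transgene, culture or treatment named in the labels, and no age was found there. In every organ, collagenase II and DNase I acted on the tissue for 40 min, a Percoll step enriched the cells, and the sort took live CD45+ CD11b+ F4/80+ cells without Ly6c and CD11c. Libraries were prepared from 10 ng of RNA. The labels give mouse number 1 to testis, 2 to epididymis and 3 to brain, so organ and mouse number cannot be told apart. They do not state that the 3 libraries of an organ are separate animals, so a p-value here measures library-to-library spread alone, which may be technical.

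The libraries held 2727092 to 4458688 reads assigned to genes. The 13 macrophage markers (Csf1r the highest of them) all had reads in each organ and together took 50.3 to 53.1 reads per 10000 in testis, 88.7 to 96.6 in epididymis and 123 to 128 in microglia. Of 12 microglial markers, 11 had a row, and these summed to 8.37 to 9.49 reads per 10000 in testis, 38.0 to 44.4 in epididymis and 107 to 124 in microglia.

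Macrophages take up cholesterol with lipoproteins, dying cells and cell debris, and return the excess to extracellular carriers. Oxysterols, which accumulate with cholesterol, activate the nuclear receptors LXR-alpha (Nr1h3) and LXR-beta (Nr1h2), and these, paired with a retinoid X receptor, raise transcription of the exporters Abca1 and Abcg1 and, in macrophages, of Apoe and Lpl. ABCA1 loads lipid onto lipid-poor apolipoproteins such as apolipoprotein E, and ABCG1 passes cholesterol to formed particles. TREM2 is a surface receptor of macrophages and microglia that binds lipids and lipoproteins, apolipoprotein E among them, and signals through the adaptor DAP12, encoded by Tyrobp.

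Apoe, which encodes the apolipoprotein of the set, had the widest range of the 7 genes and was highest in epididymis. It lies on chromosome 7 of GRCm38 (19696109 to 19699188, minus strand), and its exons overlap no other annotated gene. Its normalised read counts were 102571, 102287 and 112096 in the epididymis libraries, 6696, 2878 and 8182 in the testis libraries and 882, 895 and 633 in the microglia libraries, in the order of replicates 1 to 3. No organ overlapped another, and the order was epididymis, testis, microglia. In epididymis the level was even, 105651 ± 5583 (SD, n = 3), while in testis it was 5919 ± 2736 (SD, n = 3), with replicate 2 well below the other two. In bulk libraries such as these, fewer cells that express a gene and less RNA per cell cannot be told apart.

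Apoe took 3.34% ± 0.143 (SD, n = 3) of all reads in epididymis, 0.167% ± 0.0777 in testis and 0.0266% ± 0.00551 in microglia. Per kb of exon it ranked first among 14575 genes in each of the 3 epididymis libraries. Its best and worst ranks were 38 and 111 in testis and 197 and 374 in microglia. On the log2(value + 1) scale, epididymis exceeded microglia by 7.05 (SE 0.29, 95% interval 6.43 to 7.68), a 132-fold ratio of the means. Testis was below epididymis by a log2 difference of -4.29 (SE 0.29, interval -4.91 to -3.66) and above microglia by 2.77 (SE 0.29, interval 2.14 to 3.39). Epididymis exceeded testis 17.9-fold and testis exceeded microglia 7.37-fold as ratios of means.

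Markers of other cells of these organs are given beside Apoe. Leydig cells, epididymal epithelium and astrocytes lack CD45, which the sort required, and some of their markers had reads in these libraries. Leydig cells, the steroid-producing cells of the testis, are marked by 9 listed genes, 8 with a row. These summed to 5.80, 4.04 and 10.5 reads per 10000 in testis replicates 1, 2 and 3. The sums were 0.0910 to 0.643 in epididymis and 0.249 to 0.336 in microglia. Insl3, the leading Leydig gene in testis, had no read in epididymis. The 10 spermatid markers, all with a row, summed to 4.64, 3.43 and 6.94 reads per 10000 in testis replicates 1, 2 and 3. They summed to 2.32 to 3.37 in epididymis and 1.06 to 1.16 in microglia, with Odf2 the highest of them in both. The 11 markers of epididymal epithelium with a row summed to 1.47 to 2.34 reads per 10000 in epididymis and to at most 0.312 in testis and 0.173 in microglia. The 10 astrocyte markers with a row summed to 1.87 to 2.32 reads per 10000 in microglia, 0.249 to 1.27 in epididymis and 1.24 to 2.37 in testis. In microglia 4 of them were at 0 (Aldh1l1, Aldoc, Fgfr3 and Agt), and 6 had reads, Slc1a3 the most with a mean of 454 normalised reads. The part of these cells in the Apoe values was not tested.

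Lpl encodes lipoprotein lipase, which hydrolyses the triglycerides of lipoproteins (chromosome 8, 68880491 to 68907448, plus strand). It was read 1023, 1667 and 1254 times in the testis libraries after normalisation, 940, 784 and 894 times in epididymis and 180, 329 and 292 times in microglia. Every reproductive tract library lay above every microglia library, and testis lay above epididymis by a small margin. The log2 difference from microglia was 2.31 (SE 0.28, 95% interval 1.72 to 2.90) for testis and 1.75 (SE 0.28, interval 1.15 to 2.34) for epididymis. Between testis and epididymis it was 0.57 (SE 0.28), and the interval of -0.03 to 1.16 includes 0. Of 8 adipocyte markers 2 had a row, too few for a reading of fat cells, and the part of adipocytes in the Lpl values was not tested.

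**Figure D1:**
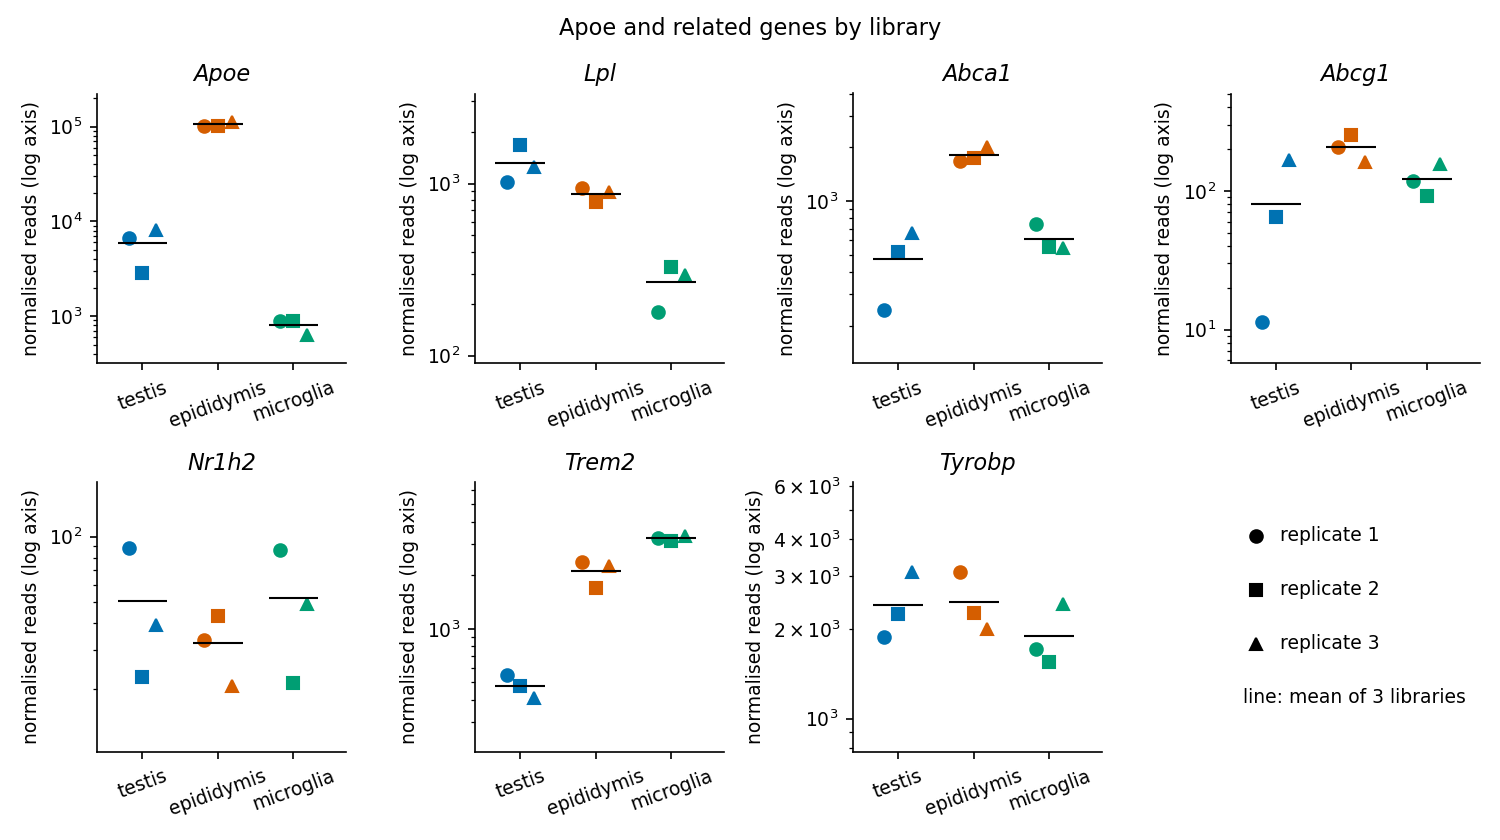
Normalised read counts (log axis) of the 7 genes in each of the 9 libraries, by organ, with the organ mean as a line. Apoe spans the widest range, from 633 in a microglia library to 112096 in an epididymis library, Trem2 descends from microglia to testis, and Tyrobp and Nr1h2 overlap in all organs.

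Abca1 encodes the exporter that loads cholesterol and phospholipid onto apolipoproteins (chromosome 4, 53030787 to 53159895, minus strand). Its normalised counts were 1675, 1741 and 2002 in epididymis, 740, 551 and 546 in microglia and 245, 515 and 661 in testis. Epididymis lay above both other organs, whose libraries overlapped. The log2 difference of epididymis from microglia was 1.57 (SE 0.31, 95% interval 0.90 to 2.24), a 2.95-fold ratio of means. Testis differed from epididymis by -2.04 (SE 0.31, interval -2.71 to -1.37) and from microglia by -0.47 (SE 0.31, interval -1.14 to 0.20).

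Abcg1 encodes the exporter to formed lipoprotein particles (chromosome 17, 31057675 to 31117988, plus strand) and its counts were 207, 252 and 161 in epididymis, 118, 92.5 and 156 in microglia and 11.4, 64.6 and 167 in testis. Epididymis lay just above microglia, while the testis libraries spread across both. The log2 difference of epididymis from microglia was 0.76 (SE 0.76, 95% interval -0.86 to 2.39). This SE rests on 1 spread shared by all 9 libraries, testis included. The SD of the counts was 97.6% of the mean in testis, 22.2% in epididymis and 25.9% in microglia. Testis differed by -1.99 (SE 0.76, interval -3.61 to -0.37) from epididymis, which became -0.96 without testis replicate 1 and -2.84 without testis replicate 3. From microglia testis differed by -1.23 (SE 0.76, interval -2.85 to 0.40), which became -0.20 and -2.08 without the same libraries.

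The promoter of Abca1 is printed because LXR binds this gene's promoter in macrophages, and those of Apoe and Trem2 because these genes separate all 3 organs in the data. Each is the 250 bases before a RefSeq start site on GRCm38.p6, 5′ to 3′ on the gene's strand, at chr4:53159896-53160145, chr7:19699189-19699438 and chr17:48346151-48346400, and the Apoe window belongs to the outermost of its 3 listed starts.
Abca1: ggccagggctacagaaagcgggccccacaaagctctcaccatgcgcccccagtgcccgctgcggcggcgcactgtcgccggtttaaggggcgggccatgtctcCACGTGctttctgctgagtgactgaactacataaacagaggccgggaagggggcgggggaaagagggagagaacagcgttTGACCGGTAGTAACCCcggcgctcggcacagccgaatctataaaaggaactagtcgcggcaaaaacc
Apoe: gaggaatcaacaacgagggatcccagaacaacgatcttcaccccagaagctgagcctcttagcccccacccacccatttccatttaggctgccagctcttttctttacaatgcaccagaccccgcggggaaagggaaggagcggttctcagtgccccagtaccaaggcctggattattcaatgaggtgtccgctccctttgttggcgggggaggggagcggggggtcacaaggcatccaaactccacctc
Trem2: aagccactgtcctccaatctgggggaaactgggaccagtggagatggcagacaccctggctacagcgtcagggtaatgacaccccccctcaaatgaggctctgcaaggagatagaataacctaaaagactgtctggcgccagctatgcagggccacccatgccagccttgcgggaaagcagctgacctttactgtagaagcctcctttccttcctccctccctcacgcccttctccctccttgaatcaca
Capitals mark matches to motifs searched on both strands. They were the LXR element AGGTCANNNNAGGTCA with up to 2 or up to 3 mismatches, the PU.1 motif GAGGAAGT and the E-box CACGTG. The matches do not overlap each other, and the wider LXR search, which contains the narrower one, was added after the latter found nothing in these genes.

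The Abca1 window held an E-box 147 bases before the start and, on the opposite strand, an LXR element with 3 mismatches 67 bases before it. Among 32851 promoters of this length, 18.5% held the element at that tolerance, 2.57% at 2 mismatches, 6.02% the E-box and 2.44% the PU.1 motif. No match was found in the Apoe and Trem2 windows shown, nor in the other starts of Apoe, Nr1h2 and Nr1h3. RefSeq windows were matched for 5 of the 8 symbols and not for Abcg1, Lpl and Tyrobp. A match is a description of letters and not of binding.

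Nr1h2, encoding LXR-beta (chromosome 7, 44549616 to 44553951, minus strand), had few reads in every organ. Its normalised counts were 89.0, 22.6 and 39.3 in testis, 33.6, 43.1 and 20.5 in epididymis and 86.5, 21.2 and 48.9 in microglia, and all organs overlapped. The log2 differences had wide intervals, from -1.68 to 2.60 for testis against epididymis, -2.20 to 2.08 for testis against microglia and -2.66 to 1.62 for epididymis against microglia. Differences within those bounds were not excluded.

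Trem2 (chromosome 17, 48346401 to 48354147, plus strand) was highest in microglia, with 3232, 3096 and 3332 normalised reads. It had 2372, 1698 and 2253 in epididymis and 549, 481 and 408 in testis. The libraries of each organ stood apart from those of the others, in the reverse of the Apoe order for epididymis and microglia. Epididymis lay below microglia by a log2 difference of -0.63 (SE 0.20, 95% interval -1.06 to -0.19). Testis lay below epididymis by -2.13 (SE 0.20, interval -2.57 to -1.70) and below microglia by -2.76 (SE 0.20, interval -3.19 to -2.32). The summed macrophage markers given above followed the same order of organs as Trem2, and their part in its values was not tested.

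Tyrobp, the gene for DAP12 (chromosome 7, 30413760 to 30417585, plus strand), was abundant in all organs. Its normalised counts were 1876, 2244 and 3102 in testis, 3104, 2261 and 2003 in epididymis and 1708, 1547 and 2417 in microglia. The organs overlapped in every pair. Log2 differences were -0.04 (SE 0.24, 95% interval -0.55 to 0.48) for testis against epididymis, 0.34 (SE 0.24, interval -0.17 to 0.86) for testis against microglia and 0.38 (SE 0.24, interval -0.14 to 0.90) for epididymis against microglia. Per kb of exon it ranked between 17 and 47 in the 9 libraries.

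**Figure D2:**
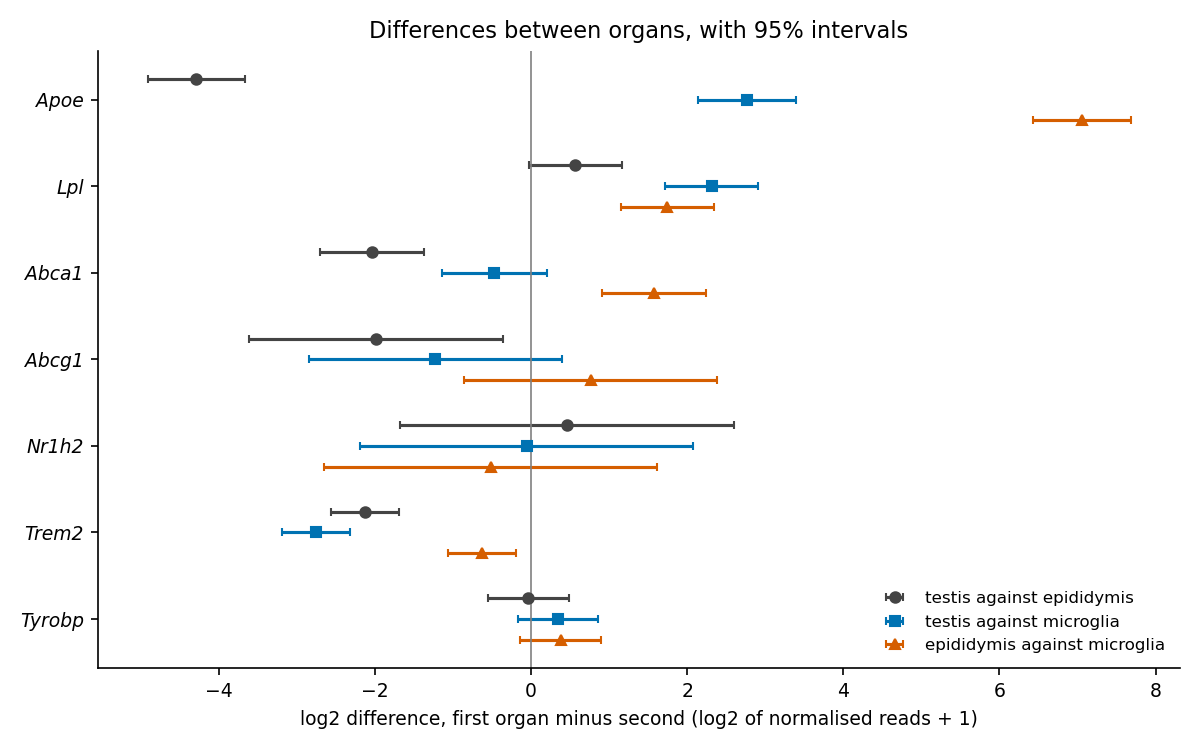
Log2 difference between organs for each of the 7 genes, with its 95% interval from the linear model, for testis against epididymis, testis against microglia and epididymis against microglia. Apoe reaches 7.05 for epididymis against microglia, Trem2 is below 0 in all 3 comparisons, and the intervals of Nr1h2 and Tyrobp include 0 in each.

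Counted over the 7 genes, the 3 libraries of one organ stood apart from the 3 of the other for 4 genes between testis and epididymis (1 higher and 3 lower in testis), where 19.8% of the 11766 genes tested did so (11% higher and 8.8% lower in testis). Between testis and microglia 3 of 7 stood apart (2 higher, 1 lower in testis), against 30.8% of all genes tested (15.9% and 14.9%). Between epididymis and microglia 5 of 7 did so (4 higher, 1 lower in epididymis), against 22% (10.5% and 11.5%). The symbols were chosen with these values known, so nothing is read from those counts. Any 2 of the comparisons share the 3 libraries of an organ.

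Ratios within a library do not depend on its normalisation, and they were taken per kb of exon. Trem2 relative to Tyrobp was 0.0394, 0.0289 and 0.0177 in testis, 0.103, 0.101 and 0.152 in epididymis and 0.255, 0.270 and 0.186 in microglia. The receptor was thus lowest relative to its adaptor in testis and highest in microglia, with no overlap between organs. Apoe relative to Abca1 was 297, 285 and 271 in epididymis, 132, 27.1 and 60.0 in testis and 5.77, 7.88 and 5.62 in microglia.

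Apoe relative to Trem2 separated the organs as well. It was 100.04, 139 and 115 in epididymis, 28.2, 13.9 and 46.4 in testis and 0.631, 0.669 and 0.439 in microglia, so Apoe was below Trem2 per kb only in microglia among these 3 organs. Lpl relative to Trem2 ran the other way between the reproductive organs, at 0.880, 1.64 and 1.45 in testis, 0.187, 0.218 and 0.187 in epididymis and 0.0263, 0.0501 and 0.0414 in microglia. The ratio of Abca1 to Abcg1 was 4.86 to 8.78 in epididymis and 2.47 to 4.40 in microglia, without overlap, while testis, at 2.79 to 15.2, overlapped both.

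**Figure D3:**
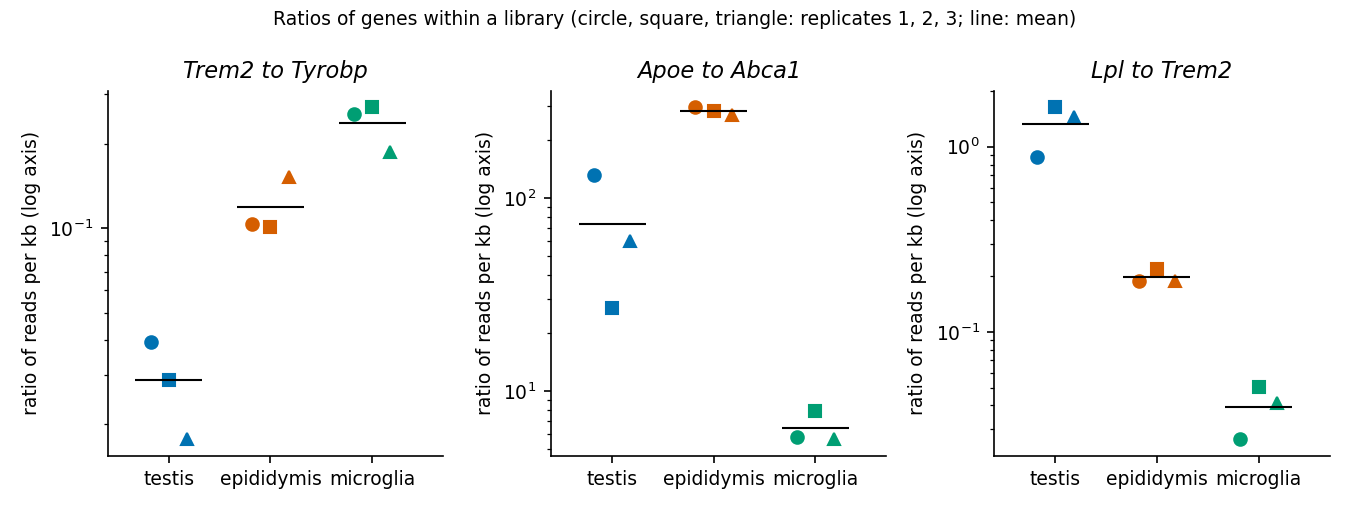
Ratios of reads per kb of exon between pairs of genes in each of the 9 libraries, by organ (log axis). The ratio of Trem2 to Tyrobp climbs from 0.0177 in a testis library to 0.270 in a microglia library, and that of Apoe to Abca1 is above 270 in every epididymis library.

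Across the 9 libraries, the genes most like each member in log2 level were picked from 11759 others by Pearson's r, given as a description since the 9 points share 3 organs and their libraries' scaling. Apoe was most like Ms4a7 (r = 0.99), Prdx5 (0.99) and Tor3a (0.98), and Ms4a7 itself averaged 3990 normalised reads in epididymis, 398 in testis and 126 in microglia. Trem2 was most like the microglial gene Tmem119 (r = 0.99), with 3184, 1423 and 234 normalised reads in microglia, epididymis and testis, followed by Camk1 (0.98) and Bmp2k (0.98). Lpl was most like Shtn1, Slamf7 and Dab2 (each 0.98). Abca1 was most like Mrpl37 (0.97), Stab1 (0.95) and Enpp4 (0.95), and Abcg1 like Usp12 and Ift80 (each 0.98). Tyrobp was most like Tmem256 (0.94), Alkbh5 (0.93) and Fth1 (0.92), and Nr1h2 like Cntnap2 (0.95), Clta (0.93) and Slc31a1 (0.90).

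The other genes of these pathways were taken from 10 lists of 187 genes, of which 161 had a row and 145 were tested with limma in the fit over all genes, with Benjamini-Hochberg adjustment and a threshold of 0.05. Between testis and epididymis 17 of the 145 passed, 11.7% of them (5 higher and 12 lower in testis), against 4.39% of all genes tested (2.49% higher and 1.9% lower). Between testis and microglia 36 passed, or 24.8% (23 higher and 13 lower in testis), against 11.7% of all genes (6.82% and 4.83%). Between epididymis and microglia 22 passed, or 15.2% (15 higher and 7 lower in epididymis), against 4.79% of all genes (2.99% and 1.8%). The lists were chosen with earlier results of these data known, so no excess over all genes is read from these shares. The same holds for the shares of each list below. The median log2 differences over the 145 genes were -0.01, 0.08 and 0.09 (0.07 with genes at 0 in an organ placed at their bound) in these comparisons, beside 0.10, -0.07 and -0.13 over all genes tested. With libraries rescaled to the same total, the splits against epididymis and microglia for testis became 3 higher and 15 lower and 20 higher and 20 lower.

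**Figure D4:**
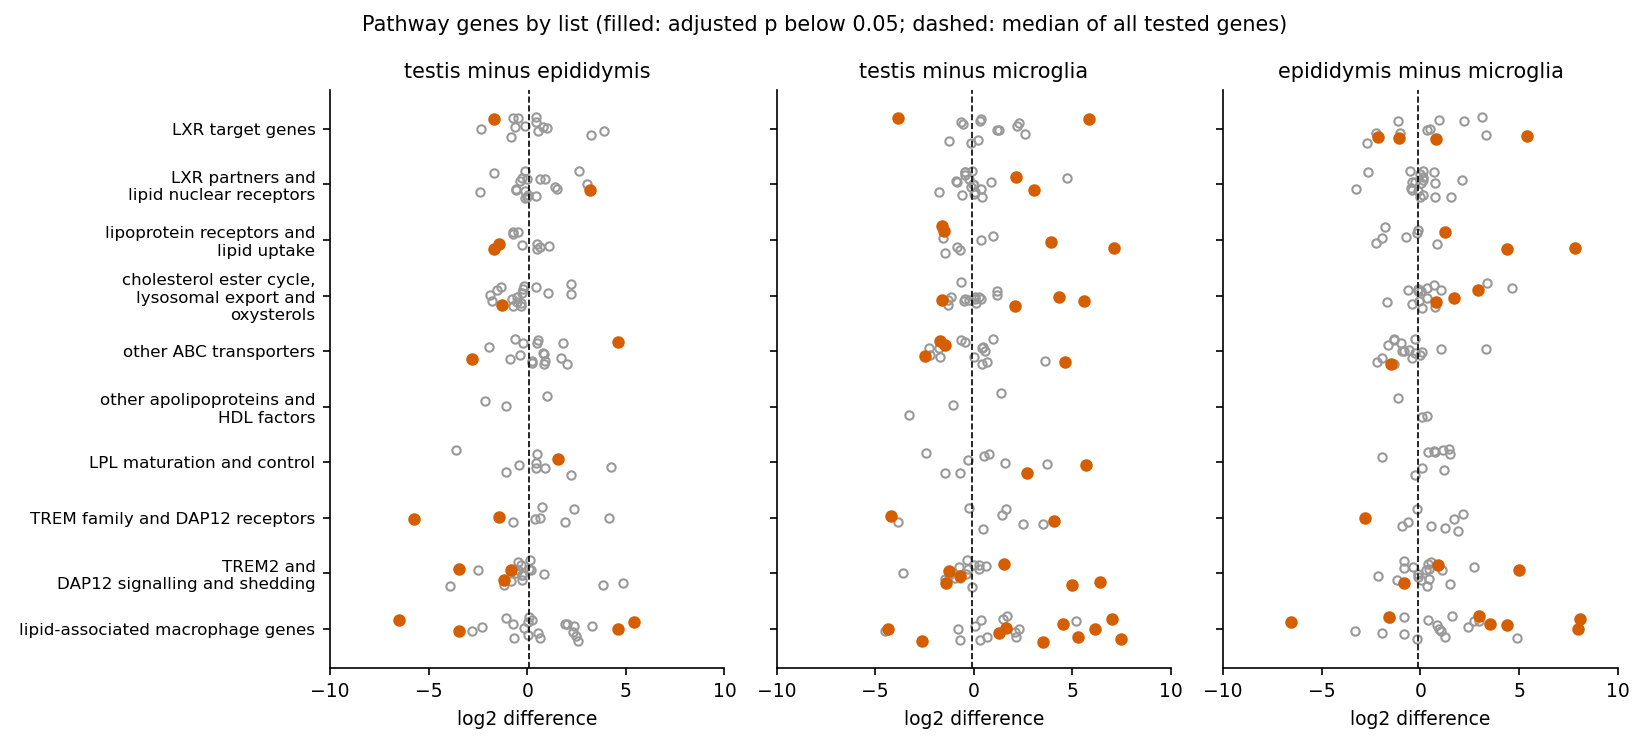
Log2 difference between organs of each tested gene of the 10 pathway lists, 1 panel per comparison, with genes called by limma (adjusted p below 0.05) as filled points, the others open, and the median of all tested genes as a dashed line. The lipid-associated macrophage list has 10 of 23 genes called between testis and microglia, where 11.7% of all tested genes were called. The lists were chosen with earlier results of these data known, so no excess is read from such shares. The list of other apolipoproteins, with 3 genes tested, has none called in any comparison.

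Among 14 tested LXR target genes other than the members, 1 fell in testis against epididymis, 1 rose and 1 fell in testis against microglia, and 2 rose and 2 fell in epididymis against microglia. These were 7.14%, 14.3% and 28.6% of the list, against 4.39%, 11.7% and 4.79% of all genes tested. The median log2 differences of the 14 genes were 0.15, 0.34 and 0.39 in these comparisons, in the order given. Over all genes tested the medians were 0.10, -0.07 and -0.13. The same shares and medians over all genes stand beside each list below. Mertk, a receptor for the clearance of dying cells, was 5231 ± 1202 (SD, n = 3) in microglia, 1168 ± 305 in epididymis and 378 ± 149 in testis. It was lower in testis than in microglia (log2 difference -3.83, SE 0.29, limma adjusted p = 6.05e-07) and lower in epididymis than in microglia (limma adjusted p = 0.000408). Apoc1, which lies 3449 bases from Apoe and encodes a small apolipoprotein, averaged 57.8 ± 19.0 in testis and 43.6 ± 17.5 in epididymis and had no read in microglia. Testis thus exceeded microglia at least 19.8-fold, with 3 reads per library as the floor (limma adjusted p = 0.01). Srebf1, the lipid-synthesis regulator, averaged 108 in testis, 176 in epididymis and 78.7 in microglia and did not pass in any comparison.

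Of 20 LXR partners and other lipid nuclear receptors, Rora was higher in testis than in epididymis (520 ± 136 against 68.9 ± 47.9, limma adjusted p = 0.0233), a call lost without testis replicate 1, 2 or 3 or epididymis replicate 2 (adjusted p from 0.0564 to 0.111). In testis against microglia Rora and Nr4a1 were higher (limma adjusted p = 0.0135 and 0.0313). The Rora call was lost without testis replicate 1 or 2 or microglia replicate 3 (0.0582 to 0.0705). That of Nr4a1 was lost without replicate 1 or 3 of either organ (0.0657 to 0.169). Both Rora calls and the Nr4a1 call were also lost without the variance trend, and the Nr4a1 call with libraries rescaled to the same total. Between epididymis and microglia none of the 20 passed with limma, edgeR or DESeq2. Unadjusted limma p was below 0.05 for 3 of the 20, and for 1925 of all 11766 genes tested. The medians over the 20 were 0.00, -0.07 and -0.01 on the log2 scale. Rxra, the retinoid X receptor alpha, averaged 84.2, 108 and 101 normalised reads in testis, epididymis and microglia.

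Lipoprotein receptors and uptake genes, 10 of them tested, contained 2 that fell in testis against epididymis, 2 that rose and 2 that fell in testis against microglia, and 3 that rose in epididymis against microglia. Median log2 differences were -0.38, -0.77 and -0.14. Cd36, a fatty acid and oxidised lipoprotein receptor, was 652 ± 171 (SD, n = 3) in epididymis, 410 ± 195 in testis and 3.56 ± 5.40 in microglia. Its limma adjusted p was 2.15e-05 for testis and 2.17e-05 for epididymis against microglia. Lrp1, an apolipoprotein E receptor, was lower in testis (769 ± 184) than in microglia (2124 ± 57.8; limma adjusted p = 0.000174), and epididymis, at 1268 ± 48.5, did not pass against testis (0.0579) or microglia (0.0551). Scarb2, a lysosomal membrane protein, was lower in testis (597 ± 136) than in microglia (1783 ± 279, limma adjusted p = 0.000177) and epididymis (1568 ± 33.2, limma adjusted p = 0.00171).

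Genes of the cholesterol ester cycle, lysosomal export and oxysterols, 18 tested, contained 1 that fell in testis against epididymis, 3 that rose and 1 that fell in testis against microglia and 3 that rose in epididymis against microglia. Median log2 differences over this list were -0.41, 0.05 and 0.33. Lamp1, a lysosomal membrane glycoprotein, was lower in testis (762 ± 60.2) than in epididymis (1846 ± 196, limma adjusted p = 0.00196). Nceh1, a cholesterol ester hydrolase, was higher in epididymis (358 ± 80.5) than in microglia (47.8 ± 17.4, limma adjusted p = 0.0134). The Nceh1 call was lost without epididymis replicate 1 or 3 or microglia replicate 2 (0.0513 to 0.0677) and without the variance trend. The 3 that rose in testis against microglia were Ch25h, Cyp27a1 and Gramd1b (limma adjusted p = 0.0363, 0.0406 and 0.0438). These calls held in 3, 2 and 3 of the 9 fits with 1 library left out. Npc1, the lysosomal cholesterol transporter, was lower in testis (170 ± 146) than in microglia (423 ± 42.2, limma adjusted p = 0.0307). The Npc1 call was lost without testis replicate 1 or 3 or any one microglia library (0.0799 to 0.122). It was also lost with edgeR, with DESeq2, with the 6 libraries alone and without the variance trend. Among 18 other ABC transporters, 1 rose and 1 fell in testis against epididymis, 1 rose and 3 fell in testis against microglia and 1 fell in epididymis against microglia. Their medians were 0.52, -0.23 and -0.89 in log2 difference. Abcb4, a phospholipid exporter, was lower in testis (115 ± 22.5) than in microglia (374 ± 31.2, limma adjusted p = 0.0111), lost without microglia replicate 1 (0.0568) or 3 (0.0522).

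None of the 3 tested genes of other apolipoproteins passed in any comparison with limma, edgeR or DESeq2. Unadjusted limma p was below 0.05 for 1 of them, in testis against microglia, where 2754 of the 11766 genes tested were below it. The median log2 differences of these 3 genes were -1.10, -1.03 and 0.07. Of 10 genes that mature or control lipoprotein lipase, 1 rose in testis against epididymis and 2 in testis against microglia, with median log2 differences of 0.45, 0.65 and, for epididymis against microglia, 0.71. Sdc4, a heparan sulfate proteoglycan, was higher in testis (527 ± 29.0) than in microglia (82.6 ± 29.9, limma adjusted p = 0.000218). Between epididymis and microglia 0 of the 10 passed with limma, edgeR or DESeq2. Unadjusted limma p was below 0.05 for 1 of the 10, and for 1925 of all 11766 genes tested.

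Among 9 tested genes of the TREM family and DAP12 receptors, 2 fell in testis against epididymis, 1 rose and 1 fell in testis against microglia and 1 fell in epididymis against microglia. Median log2 differences were 0.66, 1.44 and 0.51. Siglech, a microglial lectin that signals through DAP12, was 2702 ± 260 (SD, n = 3) in microglia, 449 ± 298 in epididymis and 147 ± 39.9 in testis. Its limma adjusted p against microglia was 2.4e-06 for testis and 0.000482 for epididymis. Cd300ld, an activating receptor, was higher in testis (256 ± 77.0) than in microglia (14.4 ± 6.10, limma adjusted p = 0.00163). Treml2 and Siglech were lower in testis than in epididymis, with limma adjusted p = 0.0286 and 0.049. With 1 library left out, the Treml2 call held only without testis replicate 2 or microglia replicate 2, and lay between 0.0558 and 0.0996 otherwise. The Siglech call then held only without epididymis replicate 1, and lay between 0.0705 and 0.169 otherwise. Both calls were also lost with a pseudocount of 0.1, with the 6 libraries alone and without the variance trend. Treml2 was lost with edgeR too, and Siglech without the filter on low values and with TMM scaling. Hcst, the related adaptor DAP10, averaged 145 in testis, 109 in epididymis and 58.0 in microglia and did not pass.

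In the list of 20 genes for TREM2 and DAP12 signalling and shedding, 3 fell in testis against epididymis, 3 rose and 3 fell in testis against microglia, and 2 rose and 1 fell in epididymis against microglia. Median log2 differences were -0.37, -0.36 and 0.30, the last 0.16 with genes at 0 in an organ placed at their bound. The MS4A family gene Ms4a7 was higher in epididymis than in testis (3990 ± 388 against 398 ± 201, limma adjusted p = 5.33e-05) and than in microglia (126 ± 17.6, limma adjusted p = 4.25e-07). Pik3r1, a regulatory subunit of phosphoinositide 3-kinase, was lower in testis (958 ± 112) than in microglia (2520 ± 306, limma adjusted p = 0.000198). Syk, the kinase recruited to DAP12, averaged 309 in testis, 362 in epididymis and 289 in microglia, and did not pass.

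Genes of lipid-associated macrophages, the longest list with 23 tested, had 2 higher and 2 lower in testis against epididymis, 8 higher and 2 lower in testis against microglia and 5 higher and 2 lower in epididymis against microglia. These were 17.4%, 43.5% and 30.4% of the list, against 4.39%, 11.7% and 4.79% of all genes tested. No excess is read from these shares, as the list was chosen with earlier results known. The medians, 0.26, 1.62 and 1.05, were log2 differences in the same order, beside 0.10, -0.07 and -0.13 over all genes tested. Axl, a receptor for dying cells, averaged 756 ± 66.6 in epididymis, 502 ± 167 in testis and 3.56 ± 5.40 in microglia, with limma adjusted p = 1.03e-05 and 7.54e-06 against microglia. Lgals1, a galectin, was higher in testis (1047 ± 502) than in microglia (16.3 ± 20.3, limma adjusted p = 0.00105), as was the intermediate filament gene Vim (413 ± 62.9 against 6.87 ± 7.50, limma adjusted p = 0.000226). Ctsd, a lysosomal protease, was lower in testis (127 ± 104) than in epididymis (1123 ± 155, limma adjusted p = 0.000405) and than in microglia (2026 ± 125, limma adjusted p = 8.83e-06). Itgax, which encodes CD11c, the protein that the sort excluded, averaged 256 ± 43.3 in epididymis and had no read in microglia, at least 88.0-fold apart (limma adjusted p = 0.00656). Beside these, 7 T and NK cell markers with a row summed to 1.58 to 2.47 reads per 10000 in testis and to at most 0.543 in epididymis and 0.506 in microglia. The 11 monocyte and neutrophil markers with a row summed to 4.31 to 5.63 in testis, 0.839 to 1.24 in epididymis and 1.91 to 3.08 in microglia. In testis Ccr2 was the highest of them, with a mean of 1343 normalised reads, and S100a8, S100a9 and Retnlg were at 0. In microglia all 11 had reads, Csf3r the most with a mean of 260. The part of T, NK, monocyte and neutrophil cells in the testis values was not tested.

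Of the calls named in these lists by rule, 2 of 17 between testis and epididymis (Ms4a7 and Ctsd), 14 of 31 between testis and microglia and 7 of 20 between epididymis and microglia held in all 19 alternative analyses. In the first comparison Mertk, Scarb2, Stab1, Lamp1 and Vav1 were lost only without the variance trend.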

How the data were processed

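The deposited values are a signal per gene, and they have the form of reads divided by a factor per library. CASAVA 1.8, Bowtie2 2.2.1, Partek 6.6, DESeq2 and mm10 are named per the submitters' processing notes, while what each tool did, how reads were counted and with which annotation is not given in the sources used here. All values (100%) came out whole when divided by what 1 read is worth in their library, within 3.93e-10 reads, and counts of reads were recovered. The kit does not mark strand. The wording on pooling of testis and epididymis suspensions leaves their handling unclear.

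The analysis used log2(value + 1). Genes with at least 10 in at least 3 libraries (11766) were fitted over all 9 libraries with limma 3.58.1 in R 4.3.3, variances following the mean, with Benjamini-Hochberg adjustment over all genes. Replicate numbers follow the sample list. The procedure was tested on simulated data. Fold bounds use a floor of 3 reads per library and cover counting error only. Lengths and positions are from GENCODE M21 on GRCm38, and promoters from RefSeq on GRCm38.p6. The members and lists were chosen with earlier results of these data known. Named list genes are up to 3 called per list and direction with the largest difference. A further gene among those most like Abcg1 is not reported here.

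Alternatives were other pseudocounts, filters, scalings and variance models, the 6 libraries of a comparison alone, edgeR 4.0.16 and DESeq2 1.42.0 on recovered reads, and each library left out. Column and sample matches used titles, and no column was left out.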

Additional observations from a re-analysis of the deposited data

How the results depend on the processing

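None of the calls named by rule reversed direction in the 19 alternatives. A log2 difference cannot change without the filter or variance trend, with the 6 libraries alone, or without a library of the third organ. The directions of other called genes were not compared one by one. Of 516 genes called between testis and epididymis, the count was 192 without the variance trend, 250 with only the 6 libraries, 788 with DESeq2 and 366 with edgeR, and 278 to 442 with 1 library left out. List genes called there (17) were 6 without the trend and 9 to 15 with 1 library left out. Between testis and microglia 1371 genes became 837 without the trend, 1056 with edgeR and 827 to 1457 with 1 library left out, and 36 list genes became 20 to 36. Between epididymis and microglia 564 genes became 306 without the trend, 910 with DESeq2, 458 with edgeR and 320 to 597 with 1 library left out, and 22 list genes became 11 without the trend and 10 to 21 with 1 library left out. The lowest counts came without epididymis replicate 2, microglia replicate 1 and, for list genes between epididymis and microglia, epididymis replicate 1. Rescaling to the same total turned 293 higher and 223 lower genes in testis against epididymis into 227 and 307, and quantile scaling into 223 and 256. In testis against microglia it turned 803 and 568 into 655 and 770, and moved the median log2 difference over all genes from -0.07 to -0.29 (0.10 to -0.05 in testis against epididymis). The cause was not tested.

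Among the 7 genes, the log2 difference of Apoe between epididymis and microglia was 6.53 under quantile scaling, and that of Trem2 between testis and microglia was -2.99 at the same total. The direction held in 19 of 19 alternatives for Apoe, Lpl, Abca1, Abcg1 and Trem2 in each comparison, and in 15 to 19 for Nr1h2 and 17 to 19 for Tyrobp. These counts include the settings named above in which a log2 difference could not change.

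No paired analysis was possible because the labels give no replicate numbers that link libraries of different organs, and replicates were numbered here by order alone. Nr1h2 and Abcg1 had few reads, between 19 and 95 for Nr1h2 and between 11 and 269 for Abcg1 in a library, and the part of depth in their wide intervals was not tested.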
